A study of Mus musculus with 4 samples.

Results

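The genes described here are 39 that act when a germ cell leaves the mitotic cycle and passes through meiotic prophase, with Stra8 at their head. They were taken by symbol from the deposited gene table, which held 37 of the 39 among its 19991 genes. The expression of Gm4969, which encodes MEIOSIN, and of Rnf212 was not analysed here. RNA-seq had been done on 2 libraries of differentiating spermatogonia (dSG), which were wild type cells kept with retinoic acid (RA) for 36 h, and on 2 libraries of undifferentiated spermatogonia (SG), which were wild type cells labelled as given DMSO. Both groups came from cultures set up from testes of early postnatal mice and grown with FGF, ESGRO, GDNF and EGF. Neither group had the somatic cells of a tubule around it, and the series text describes the induced cells as mostly, not wholly, Kit-positive. The methods of the study describe Matrigel-coated dishes for the RA induction and mention feeder cells for its proteomics samples. They do not state whether the RNA-seq samples held feeder cells. The labels give the RA dose as 100 µM and the strain as C57BL/6, whereas the methods of the study give 100 nM and DBA mice or their F1 with GFP mice. No source states whether the 2 libraries of a group were grown as separate cultures. The p-values thus reflect the spread between libraries alone, and that spread may be technical.

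In mammals RA starts 2 steps in the male germline, the differentiation of spermatogonia and, later, the start of meiosis, and Stra8 is transcribed at both. STRA8 binds MEIOSIN and together they turn on meiotic genes. Cells then load meiotic cohesins, build a protein axis along each chromosome, cut their DNA, exchange strands with the homologue inside the synaptonemal complex, and tether telomeres to the nuclear envelope. Differentiating spermatogonia still divide by mitosis several times before any of this is seen on chromosomes.

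Values are normalized counts, that is, reads divided by a size factor for the library. Differences are log2(normalized count + 4) in dSG minus SG, tested with limma over the 14108 genes that reached 20 normalized counts in 2 or more libraries, and a gene was called at a Benjamini-Hochberg adjusted p under 0.05. Of the 37 genes, 36 passed this filter. The libraries held 22307745 and 26921478 reads in dSG, against 7484560 and 26953654 in SG. SG replicate 1 was thus the shallow library, and it stood apart from SG replicate 2. Lars2 took 3.66% and 5.60% of the reads in dSG, against 18.3% in SG replicate 1 and 3.94% in SG replicate 2, and the part of this in the results was not tested. The SD over genes of the log2 difference between replicates was 0.20 in dSG and 0.81 in SG, and the difference between the SG libraries followed the GC content of the genes (Spearman's rho = 0.73 across genes, which are not independent replicates). Each difference below was therefore also computed without SG replicate 1 and after correcting for GC content. The germ cell genes Ddx4 (5392 and 5712 in dSG, against 3601 and 5696 in SG) and Dazl (19028 and 21484 in dSG, against 7280 and 19139 in SG) were present in every library. Kit, the receptor that marks differentiating spermatogonia, had 5825 and 5921 in dSG, against 319 and 347 in SG. It belongs to a list of 10 genes of differentiating spermatogonia, whose median log2 difference was 0.07. Of these 10, 2 were called higher (Kit and Stra8; 1.16% of all genes) and 1 lower (Ccnd2; 4.91% of all genes). Ccnd2 had 2751 and 2768 in dSG, against 22317 and 18900 in SG.

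Of the 36 genes tested, 2 rose in dSG (Stra8 and Stag3), against a background of 1.16% of all genes called higher by limma. None of the 36 was called lower, where 4.91% of all genes were. At an unadjusted p under 0.05, 8 were higher, beside 10.5% of all genes, and 1 was lower, beside 16.3%. edgeR's quasi-likelihood test on the recovered reads called 2 higher (Stra8 and Rec8; background 1.4%) and 1 lower (Spo11; background 6%). DESeq2 called 6 higher (Stra8, Rec8, Stag3, Prdm9, Sycp2 and Sycp3; background 3.32%) and 1 lower (Spo11; background 10.4%). After the GC correction limma called 6 higher (Stra8, Rec8, Stag3, Prdm9, Sycp2 and Rec114; background 8.15%) and 2 lower (Spo11 and Rad21l; background 13.2%). Stra8 was the only one of the 36 called higher by all 4 of these fits. The median log2 difference of the 36 was 0.49, beside 0.01 over all genes tested, and 27 of the 36 were positive. This median was 0.25 without SG replicate 1, 0.98 without SG replicate 2 and 0.17 once GC content was corrected for. In bulk libraries a change in the share of cells that express a gene and a change in the RNA per cell cannot be told apart.

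**Figure D1:**
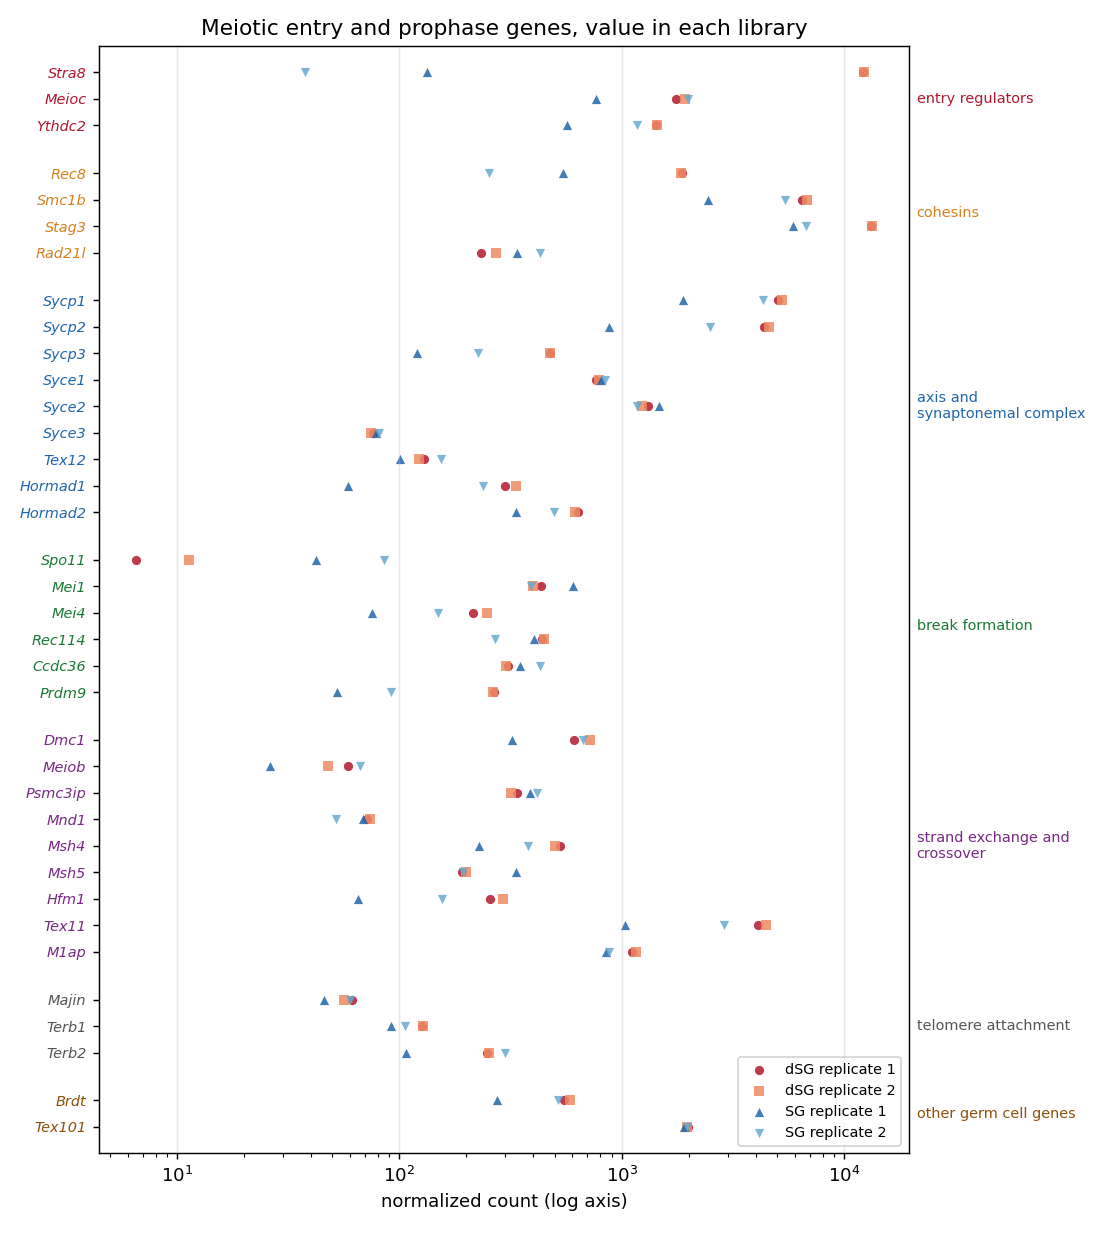
Normalized count (log axis) of each of the 36 genes tested in dSG replicates 1 and 2 and SG replicates 1 and 2, grouped by function. Stra8 lies at 12205 and 12236 in the dSG libraries and at 37.8 and 134 in the SG libraries, while most other genes are spread more between the SG libraries than between the dSG libraries.

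Stra8 (ENSMUSG00000029848; GRCm38, chr6:34920163-34939344, plus strand) encodes the RA-induced partner of MEIOSIN. It had 12205 and 12236 normalized counts in dSG, against 134 and 37.8 in SG. The dSG libraries were nearly equal and far above both SG libraries, while the SG libraries differed from each other by more than 3-fold. These values rest on 16826 and 19550 reads in dSG, against 41 and 60 reads in SG. The log2 difference was 7.33 ± 0.60 (SE; limma adjusted p = 0.0244), and it was 8.19 without SG replicate 1, 6.47 without SG replicate 2 and 7.45 once GC content was corrected for. Stra8 alone made 19.6% and 19.2% of the summed normalized counts of the 37 genes in dSG, against 0.565% and 0.104% in SG. The sum of the other 36 was 49945 and 51587 in dSG, against 23523 and 36096 in SG.

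Because Stra8 and Stag3 were the genes called, the 250 bases before their RefSeq start sites (GRCm38.p6) were read. Capitals mark AGGTCA, the half-site bound by RA receptors, in Stra8 (chr6:34920698-34920947, plus strand), and the E-box CACGTG, the core of which is bound by basic helix-loop-helix factors, in Stag3 (chr5:138280259-138280508, plus strand). The GENCODE spans of both genes begin upstream of these windows, so the windows lie before the RefSeq starts but within the GENCODE spans.
Stra8: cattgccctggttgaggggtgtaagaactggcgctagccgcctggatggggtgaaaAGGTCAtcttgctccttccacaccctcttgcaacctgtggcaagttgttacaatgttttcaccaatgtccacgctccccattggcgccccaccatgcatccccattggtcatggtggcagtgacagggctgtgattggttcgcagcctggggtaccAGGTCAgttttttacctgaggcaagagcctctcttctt
Stag3: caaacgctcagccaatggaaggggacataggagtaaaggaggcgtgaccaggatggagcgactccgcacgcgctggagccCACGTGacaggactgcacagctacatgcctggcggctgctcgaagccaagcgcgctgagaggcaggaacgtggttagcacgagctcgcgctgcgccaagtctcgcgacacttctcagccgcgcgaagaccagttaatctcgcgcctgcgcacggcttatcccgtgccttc
The Stra8 window held AGGTCA at bases -194 to -189 and -38 to -33 from the start site, both on the plus strand. At least 1 match on either strand was found in 13.8% of 27025 promoter windows of this length, and at least 2 matches in 1.32%. Among the genes described here, 31 had a window, and 6 of these (19.4%) held AGGTCA (Stra8, Hormad1, Terb1, Sycp3, Psmc3ip and Mei1). The Stag3 window held CACGTG once, at bases -170 to -165. CACGTG, which reads the same on both strands, was in 7 of the 31 (22.6%; Stag3, Hormad1, Sycp1, Brdt, Tex12, Rec114 and Sycp3) and in 6.05% of all windows. The E2F-type motif GGCGGGAA was in 4 of the 31 (Hormad1, Rnf212, Tex12 and Msh5) and in 1.88% of all windows. The A-MYB motif AACNGTT was in 1 (Sycp1), and the cAMP response element TGACGTCA and the direct repeats DR5 and DR2 were in none. These are matches of letters, searched on both strands, and say nothing of binding.

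Meioc and Ythdc2, the other entry regulators measured, act together on RNA to keep cells that have entered meiosis from going back to a mitotic cycle. Meioc had 1746 and 1924 normalized counts in dSG, against 769 and 1990 in SG. Ythdc2 had 1420 and 1438 in dSG, against 570 and 1171 in SG. Meioc overlapped between the groups and Ythdc2 did not, and both were lowest in SG replicate 1. The log2 differences were 0.57 for Meioc (95% interval -0.73 to 1.86) and 0.80 for Ythdc2 (-0.22 to 1.83), and neither was called. Without SG replicate 1 they were -0.12 and 0.29. Per kb of exon, SG replicates 1 and 2 had 167 and 431 for Meioc and 64.2 and 132 for Ythdc2. Stra8 per kb had 74.1 and 20.9 in the same libraries. It was thus below Meioc in both SG libraries, but above Ythdc2 in SG replicate 1 and below it in SG replicate 2.

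Cohesin rings hold sister chromatids together, and meiotic cells exchange several subunits for germline ones. Stag3 (ENSMUSG00000036928; GRCm38, chr5:138280240-138312393, plus strand), the STAG subunit of meiotic cohesin, had 13189 and 13328 normalized counts in dSG, against 5866 and 6763 in SG. It was the most abundant of the 37 genes by normalized count, and its groups did not overlap. It rose by a log2 difference of 1.07 ± 0.18 (SE; limma adjusted p = 0.0478), or 0.97 without SG replicate 1. This call sits at the threshold: the adjusted p was 0.0505 by edgeR, and 0.577 and 0.629 without dSG replicate 1 or dSG replicate 2.

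Rec8, the kleisin that closes the meiotic ring, had 1876 and 1852 in dSG, against 544 and 254 in SG. No other gene of the 36 but Stra8 had a larger positive log2 difference, at 2.31 ± 0.40 (SE), and it missed the threshold (limma adjusted p = 0.0510). Its values were unlike those of most genes here in that SG replicate 1 was the higher SG library. The difference was accordingly 2.85 without SG replicate 1, 1.77 without SG replicate 2 and 2.76 once GC content was corrected for, where it was called (limma adjusted p = 0.00288). Smc1b, the SMC subunit, had 6488 and 6818 in dSG, against 2438 and 5413 in SG. Its log2 difference of 0.87 (95% interval -0.24 to 1.98) was 0.30 without SG replicate 1 and was not called. Rad21l, the second meiotic kleisin, ran the other way. It had 233 and 272 in dSG, against 339 and 428 in SG, a log2 difference of -0.59 (95% interval -1.22 to 0.03) that was called after the GC correction (-1.21; limma adjusted p = 0.0243) but not by limma without it, edgeR or DESeq2.

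A list of 11 further genes of cohesin, its regulators and recombination was read beside these values. It holds the mitotic counterparts Rad21, Smc1a, Stag1 and Stag2, but not every gene on it is a counterpart of a gene above. Of these 11 genes limma called none higher, beside 1.16% of all genes, and none lower, beside 4.91%. At an unadjusted p under 0.05 the counts were also 0, beside 10.5% and 16.3%. They were 0 as well with edgeR (1.4% and 6% of all genes) and DESeq2 (3.32% and 10.4%). A list of 11 genes is too short to read these counts as a contrast with the genes above. The GC-corrected fit called 2 of them lower, Smc3 (-0.79; limma adjusted p = 0.0134) and Wapl (-0.44; limma adjusted p = 0.0372), beside 13.2% of all genes. Their median log2 difference was 0.29, or -0.02 without SG replicate 1. Per kb of exon, Stag3 was 4.47 and 4.46 times as abundant as Stag1 in dSG, against 3.48 and 2.69 times in SG. Stag3 per kb was 7.73 and 7.92 times Stag2 in dSG, against 7.99 and 4.74 times in SG, and here the groups overlapped. Smc1b per kb was 3.69 and 3.95 times Smc1a in dSG, against 1.53 and 3.59 times in SG. Rec8 per kb was 0.291 and 0.280 of Rad21 in dSG, against 0.162 and 0.0457 in SG. Rad21l per kb was 0.0639 and 0.0727 of Rad21 in dSG, against 0.179 and 0.136 in SG. The mitotic kleisin was thus the more abundant one in every library, whereas the germline STAG and SMC1 subunits exceeded their mitotic counterparts in every library, SG included.

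Genes of the chromosome axis and the synaptonemal complex were read by component. Of 9 genes none was called by limma, 5 had both dSG libraries above both SG libraries and 2 had both below. Over all 36 genes these counts were 21 above, beside 33.2% of all genes tested, and 6 below, beside 32.7%. Sycp2 and Sycp3 encode the axial element, which forms before homologues pair. Sycp2 had 4361 and 4605 normalized counts in dSG, against 873 and 2492 in SG, a log2 difference of 1.6 ± 0.53 (SE; limma adjusted p = 0.156). Sycp3 had 474 and 477 in dSG, against 121 and 227 in SG, a log2 difference of 1.5 ± 0.35 (SE; limma adjusted p = 0.0874). Both were positive without SG replicate 1, at 0.85 and 1.06, and after the GC correction, at 0.66 and 0.42. Of the exon bases of Sycp3, 52.2% are also exon of Chpt1 on the opposite strand, and no source used here says whether the counting used strand. If it did not, reads of the shared bases cannot be told apart. The study named Sycp3 on these same samples, as it did Stra8, so neither was an independent choice. It also reported both as increased after RA by real-time RT-PCR and immunofluorescence of cultured cells.

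Hormad1 and Hormad2 encode HORMA-domain proteins of unsynapsed axes. Hormad1 had 299 and 333 in dSG, against 58.7 and 238 in SG, and Hormad2 had 635 and 615 in dSG, against 336 and 497 in SG. The SG value of 58.7 for Hormad1 rests on 18 reads, and its log2 difference of 1.37 was 0.40 without SG replicate 1. Of the longest Hormad1 transcript, 61.0% has a near-identical copy in Gm15529.

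Sycp1, the transverse filament that zips the axes together, had 5024 and 5261 in dSG, against 1887 and 4328 in SG. Its log2 difference of 0.85 was 0.25 without SG replicate 1 and -0.22 once GC content was corrected for. The central element genes showed small differences. Syce1 had 763 and 792 in dSG, against 805 and 844 in SG, and Syce2 had 1315 and 1229 in dSG, against 1476 and 1173 in SG. Tex12 had 129 and 122 in dSG, against 101 and 154 in SG. Syce3 was lower still, at 74.5 to 76.2 in dSG, against 78.2 to 81.2 in SG. The log2 differences of these 4 lay between -0.08 and 0.01, and their 95% intervals all lay within -0.78 to 0.79, so that a 2-fold difference in either direction was outside each of them. The sign of each depended on the scaling, the GC correction or the test used, and Tex12 had a log2 difference of -1.07 after the GC correction (limma adjusted p = 0.0992).

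**Figure D2:**
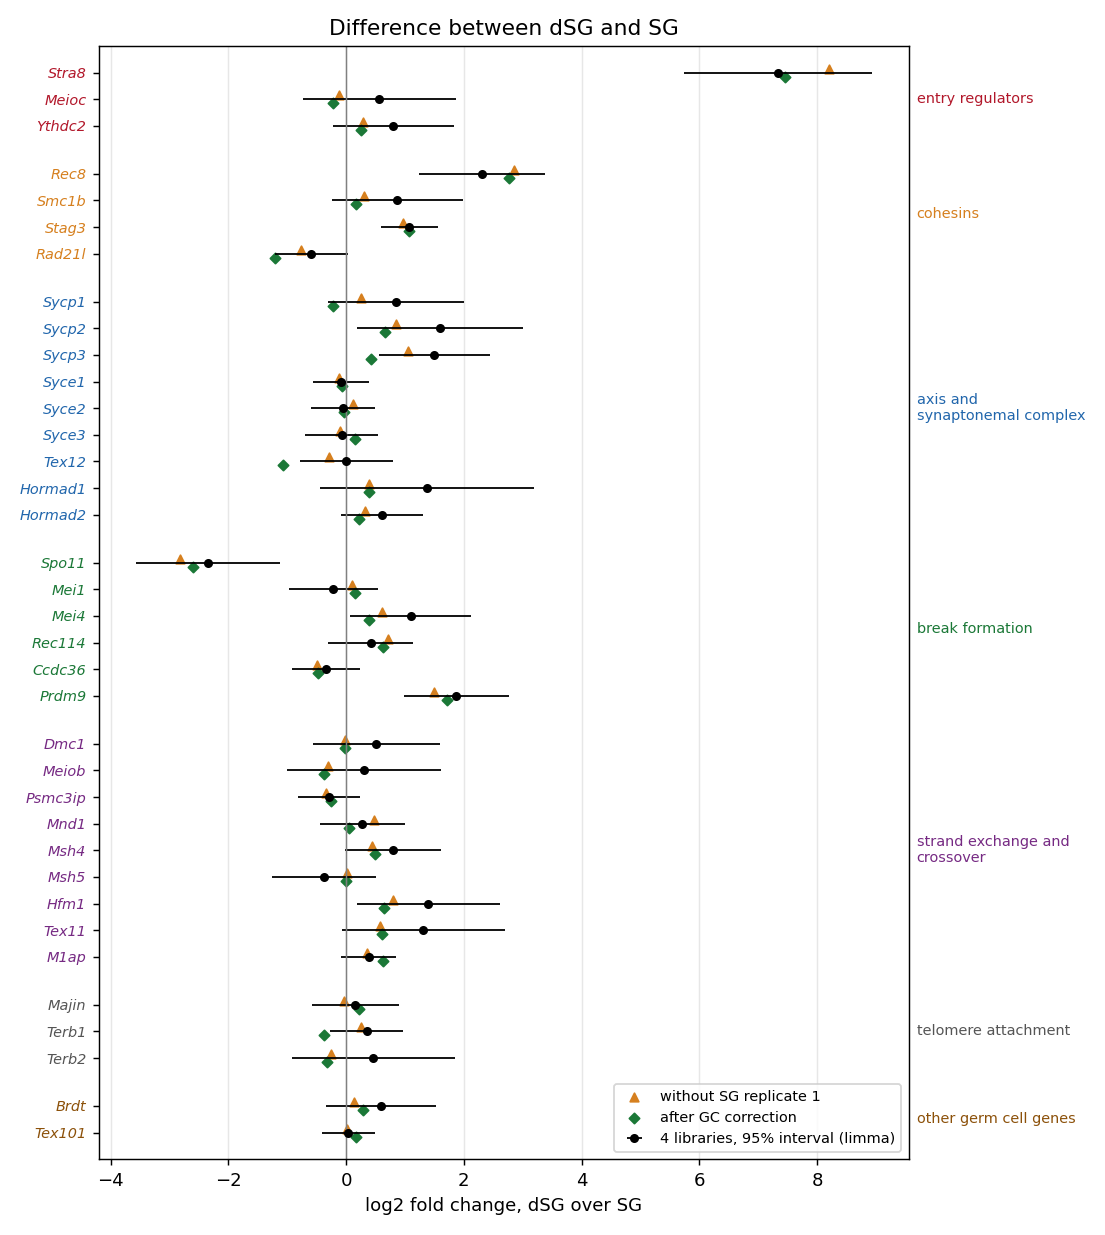
Log2 difference (dSG over SG) of each of the 36 genes with its 95% interval from limma on 4 libraries (black), with SG replicate 1 left out (orange triangles) and after the GC correction (green diamonds). Stra8, Rec8 and Prdm9 are above 1 and Spo11 is below -1 under all 3, whereas Meioc and Meiob cross 0.

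The genes for making double-strand breaks had log2 differences between -2.35 and 1.87, with a median of 0.10 over 6 and none called by limma. Spo11 encodes the enzyme that cuts the DNA, and Prdm9 the histone methyltransferase that marks where. Spo11 had 6.53 and 11.3 normalized counts in dSG, against 42.4 and 85.6 in SG. These are 9 and 18 reads in dSG, against 13 and 136 reads in SG. The groups did not overlap, and the log2 difference was -2.35 ± 0.46 (SE; limma adjusted p = 0.0642), or -2.82 without SG replicate 1 and -2.60 once GC content was corrected for. It was the only 1 of the 36 with a log2 difference below -1 in all 4 libraries together, without either SG library and after the GC correction. These estimates share libraries, so their agreement is not separate support. Spo11 also passed the filter through its SG values alone. Prdm9 had 266 and 263 in dSG, against 52.1 and 91.9 in SG, the lower of which is 16 reads. Its log2 difference was 1.87 ± 0.34 (SE; limma adjusted p = 0.0541), or 1.49 without SG replicate 1 and 1.71 once GC content was corrected for. The 2 genes, which act at the same step, thus lay on opposite sides of 0 in each of these fits.

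Mei4 and Rec114 encode partners in the axis-bound complex that supports SPO11. Mei4 had 215 and 248 in dSG, against 74.95 and 149 in SG, and Rec114 had 437 and 449 in dSG, against 404 and 269 in SG. Their log2 differences were 1.10 and 0.42, with adjusted p of 0.174 and 0.356 by limma. Of the exon bases of Rec114, 26.9% are also exon of Nptn on the opposite strand. Ccdc36, also called IHO1 and a partner of HORMAD1, had 307 and 301 in dSG, against 349 and 427 in SG. Mei1, also needed for breaks, had 434 and 399 in dSG, against 606 and 389 in SG. Both dSG libraries were below both SG libraries for Ccdc36 but not for Mei1, and the log2 differences of -0.34 and -0.22 were not called.

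Of 9 strand exchange and crossover genes tested none was called, and the median log2 difference was 0.39. Tex11, the X-linked crossover factor, was the most abundant, with 4103 and 4472 normalized counts in dSG, against 1033 and 2871 in SG. M1ap, its partner, had 1113 and 1155 in dSG, against 854 and 881 in SG. Neither overlapped between groups. The log2 difference of Tex11 was 1.31 (95% interval -0.07 to 2.69) but 0.58 without SG replicate 1, whereas that of M1ap was 0.39 (-0.08 to 0.85) and 0.36 without it.

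Hfm1, a helicase of crossover formation, had 255 and 291 in dSG, against 65.2 and 155 in SG. Msh4, which with MSH5 marks crossover sites, had 530 and 501 in dSG, against 228 and 381 in SG. Msh5 had 191 and 199 in dSG, against 336 and 193 in SG. Hfm1 and Msh4 were thus higher in both dSG libraries than in either SG library, while Msh5 overlapped. The log2 differences were 1.40 for Hfm1 (limma adjusted p = 0.153), 0.80 for Msh4 and -0.38 for Msh5, and the last was 0.02 without SG replicate 1.

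Dmc1, the meiotic recombinase, had 611 and 718 in dSG, against 319 and 667 in SG. Psmc3ip, which encodes HOP2 and works with DMC1, had 339 and 317 in dSG, against 388 and 415 in SG. Dmc1 overlapped, with a log2 difference of 0.52 that was -0.01 without SG replicate 1. Psmc3ip was lower in both dSG libraries, with a log2 difference of -0.29 (95% interval -0.81 to 0.23), and 21.2% of its exon bases are shared with Mlx on the opposite strand. Mnd1, the partner of HOP2, had 71.8 and 73.9 in dSG, against 68.4 and 51.6 in SG, and 94.2% of its longest transcript has a near-identical copy in Mnd1-ps.

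Meiob, which binds single-stranded DNA, had 47.6 to 58.8 in dSG, against 26.1 to 66.7 in SG. Its partner Spata22 did not pass the filter. It had 7.25 and 7.51 in dSG, from 10 and 12 reads, against 0 and 2.52 in SG, from 0 and 4 reads. Of its exon bases 80.5% are also exon of Gm49340 on the same strand, so its level is uncertain.

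MAJIN, TERB1 and TERB2 form the complex that fixes telomeres to the nuclear envelope. None of the 3 was called. Terb1 had 126 and 127 normalized counts in dSG, against 91.2 and 106 in SG, and Terb2 had 247 and 252 in dSG, against 108 and 298 in SG. Majin had 56.3 to 60.9 in dSG, against 45.6 to 59.8 in SG. Only Terb1 did not overlap between groups, with a log2 difference of 0.35. Of the remaining genes, Brdt, the testis bromodomain protein, had 551 and 586 in dSG, against 274 and 515 in SG. Tex101, a germ cell surface glycoprotein, had 1986 and 1973 in dSG, against 1897 and 1968 in SG. The log2 difference of Tex101 was 0.03 (95% interval -0.41 to 0.48).

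Levels per kb of exon, which take gene length into account, spread over more than 3 orders of magnitude. The length was that of all annotated exons of a gene together, so a gene with many transcript forms may be understated. Neither these levels nor the cohesin ratios above were corrected for GC content. In dSG 6 genes were above 1000 normalized counts per kb, 24 between 50 and 1000, and 7 below 50. The order in dSG began with Stra8 at 6778 per kb (47.5 in SG), Stag3 at 2313 (1101 in SG), Smc1b at 1644 (970 in SG) and Sycp1 at 1446 (874 in SG). Tex101 at 1195 (1166 in SG) and Tex11 at 1183 (539 in SG) followed and lay within their spread in dSG. At the foot stood Spata22 at 5.79 (0.988 in SG) and Spo11 at 2.27 (16.3 in SG). Stra8 was first in dSG but behind 27 of the others in SG, where Tex101, Stag3, Smc1b and Sycp1 led. Tex11 stood behind 6 others in SG. The SG values of Smc1b, Sycp1 and Tex11 per kb each differed by more than 2-fold between libraries, so their order in SG is not settled beyond that spread.

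**Figure D3:**
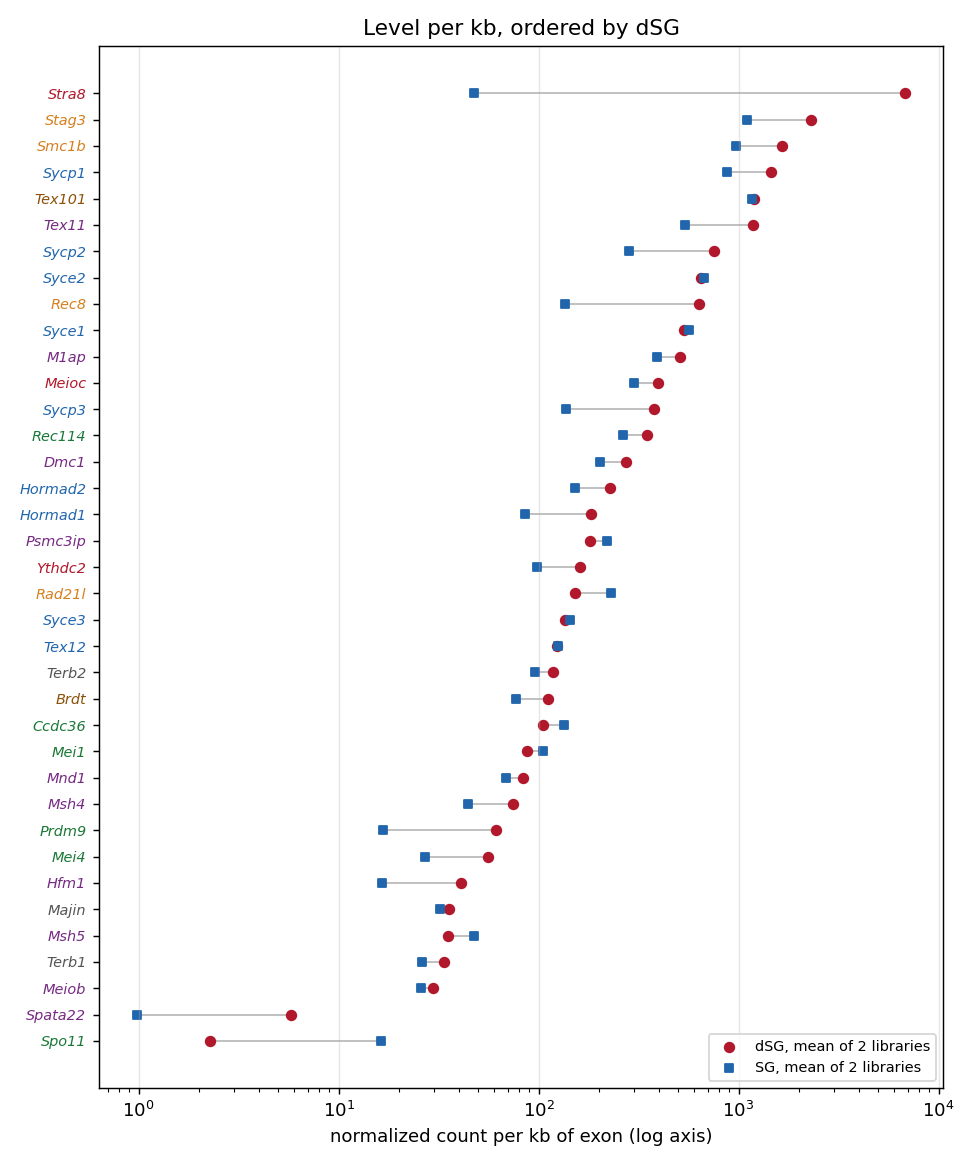
Mean normalized count per kb of exon (log axis) in dSG (red circles) and SG (blue squares) for the 37 genes, ordered by the dSG level. Stra8 stands at 6778 in dSG and 47.5 in SG, and Spo11 at 2.27 in dSG and 16.3 in SG.

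The difference between the SG libraries ran through these genes as a group. In SG replicate 1, 29 of the 36 were lower than in SG replicate 2, with a median log2 difference between the libraries of -0.58, beside 0.10 over all genes. Their median GC content was 45.0%, below the 49.9% of all genes. All 18 genes under that median of 45.0% were lower in SG replicate 1 (median -1.10), and so were 11 of the 18 at or over it (median -0.05). Across the 36 genes GC content and the SG difference had a Spearman's rho of 0.83 and a Pearson's r of 0.80, and the corresponding rho in dSG was 0.38. The points share the same pairs of libraries, and genes are not replicates. The median dSG over SG difference was 0.71 for the 18 genes of low GC content and 0.09 for the other 18, and after the GC correction it was 0.19 and 0.16. The correction removes the trend with GC content from every library, so it draws these 2 medians together by construction. A true group difference that follows GC content would be removed with it. Of the 36 genes, 19 stayed positive and 5 stayed negative in all 4 libraries together, without either SG library and after the GC correction, and the sign of the other 12 differed among these estimates. Stra8, Rec8 and Prdm9 were above 1 throughout. The estimates share libraries, so their agreement is not separate support.

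**Figure D4:**
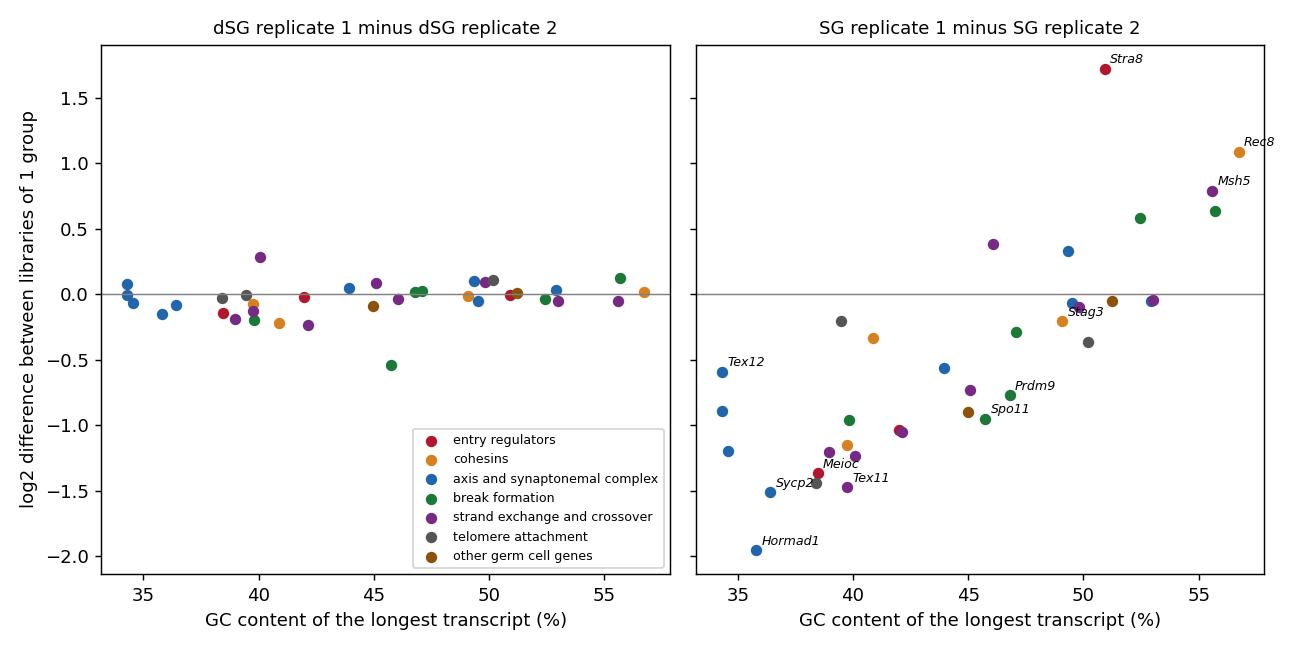
Log2 difference between the 2 libraries of a group against GC content of the longest transcript (%), for the 36 genes, with dSG at left and SG at right and colours by function. The SG differences run between -1.95 for Hormad1 and 1.72 for Stra8 and climb with GC content, while the dSG differences lie near 0 apart from Spo11 at -0.54.

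Genes around this programme were counted in the same way. Of 30 further recombination and synapsis genes none was called by limma, edgeR or DESeq2. The shares of all genes called higher and lower were 1.16% and 4.91% by limma, 1.4% and 6% by edgeR, and 3.32% and 10.4% by DESeq2. After the GC correction 2 were called higher (Hsf2bp and Hspa2), beside 8.15% of all genes. At an unadjusted p under 0.05, 5 were higher (among them Hsf2bp, 4930447C04Rik, Nek1 and Hspa2), beside 10.5% of all genes. Their median log2 difference was 0.24. Of 17 regulators upstream of meiotic entry, 5 rose (1.16% of all genes) and 1 fell (4.91%). After the GC correction 5 were called higher (8.15% of all genes) and 3 lower (13.2%). Cyp26a1, which breaks down RA, had 697 and 729 in dSG, against 16.3 and 12.0 in SG. Cyp26c1, of the same family, had 339 and 348 in dSG, against 13.0 and 6.92 in SG. The other genes that rose were Rarb, an RA receptor (log2 difference 3.56), Cyp26b1 (2.04) and Nanos3, an RNA-binding protein of germ cells (1.62). Cyp26a1, Cyp26c1, Rarb and Cyp26b1 passed the filter through their dSG values alone. Msx2, a homeobox gene, fell by 2.83 on the log2 scale. Zglp1, a regulator of oogenic fate, had 0 to 1.25 in dSG and 0 in both SG libraries.

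Of 18 genes of the complexes that keep germline promoters silent none rose, where 1.16% of all genes did, and 1 fell, where 4.91% did. This was Uhrf1, the cofactor of maintenance DNA methylation, with 4979 and 4907 in dSG, against 18276 and 13080 in SG (log2 difference -1.64; limma adjusted p = 0.0350). The median of the 18 was -0.02. The GC-corrected fit also called Ehmt2, a histone methyltransferase, higher (0.75; limma adjusted p = 0.0318) and E2f6, a repressor of the E2F family, lower (-0.50; limma adjusted p = 0.0400). That fit called 8.15% of all genes higher and 13.2% lower.

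Markers of later spermatocytes and of spermatids differed widely in level. Of 14 measured genes, 6 passed the filter and 1 was called lower, where 4.91% of all genes were. The called gene was Hist1h1t, the testis linker histone, which fell by 2.08 on the log2 scale, with 289 and 253 in dSG, against 1489 and 900 in SG. Ybx2, an RNA-binding protein of germ cells, had 178 and 155 in dSG, against 456 and 260 in SG. Its log2 difference of -1.04 was not called (limma adjusted p = 0.153) and was -0.28 after the GC correction. Of the 6 genes, 5 had a negative log2 difference and 1 a positive one. The positive gene was Zpbp, with 165 and 198 in dSG, against 61.9 and 155 in SG (0.85; limma adjusted p = 0.316). Pgk2, a spermatocyte glycolytic enzyme, had 0 to 0.725 in dSG, against 0 to 0.629 in SG. Prm1, a protamine of spermatids, had 2.50 to 4.35 in dSG, against 1.89 to 13.0 in SG. Of 14 genes of undifferentiated spermatogonia tested, 9 fell (4.91% of all genes) and none rose (1.16%).

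Markers of testicular somatic cells were summed in each library. The summed normalized counts of 12 Sertoli genes were 273 and 278 in dSG, against 909 and 592 in SG. Fshr was at 0.626 or less in every library, but Wt1 was at 71.7 to 94.5. Sox9 had 53.0 and 55.7 in dSG, against 460 and 246 in SG. Of 7 Sertoli genes tested, 5 had a negative and 2 a positive log2 difference, and 2 were called lower (Sox9 and Clu; 4.91% of all genes). Those of 14 peritubular myoid and fibroblast genes were 1032 and 968 in dSG, against 8623 and 4268 in SG, most of it Col1a1 and Pdgfra. The list also holds Thy1, which marks undifferentiated spermatogonia too. Some of its genes lay the other way, with Acta2 at 14.5 and 21.3 in dSG, against 0 and 0.629 in SG, and Col1a2 at 24.7 and 35.0 in dSG, against 13.0 and 3.15 in SG. Dcn and Lum were at 4.38 to 8.70 in dSG, against 0 to 0.629 in SG. The sums of 5 Leydig genes were 367 and 351 in dSG, against 215 and 317 in SG. Among these 5, Hsd3b1 was at 0.626 or less in every library, while Star had 302 and 304 in dSG, against 196 and 267 in SG. The sums of 6 macrophage and blood genes were 457 and 437 in dSG, against 378 and 507 in SG, and those of 5 endothelial genes 215 and 248 in dSG, against 544 and 571 in SG. Their part in the results above was not tested.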

How the data were processed

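Total RNA went into strand-preserving libraries read from both ends. The authors used Subread for alignment to GRCm38 and featureCounts 1.5.3 for the reads of each gene. Annotation, strand setting and handling of multiply mapped reads: not given in the sources used here. The deposited signal per gene is a normalized count, made by the authors by dividing reads by a size factor of the library. The table's name speaks of RPKM, but 100% of the values were whole multiples of 1 read at a tolerance of 0.01 read. The authors' own DESeq2 columns (mean, log2 fold change, its standard error, statistic, p-value and adjusted p-value) were not used.

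From these values limma 3.58.1 (R 4.3.3, with a variance trend) was fitted to log2(normalized count + 4), with group as the only term and Benjamini-Hochberg adjustment over the 14108 genes that passed the filter. Fold changes are on this scale and understate low genes. edgeR 4.0.16 and DESeq2 1.42.0 were run on the recovered reads. The GC correction subtracted from each library a lowess curve (span 0.3) of its deviation from the gene's mean against GC content of the longest GENCODE M21 transcript. It treated both groups alike, so it would also remove a group difference that follows GC content. The other alternatives were other pseudocounts, filters, scalings, a replicate block and leaving out each library. Only the limma fit with group as its single term was run on simulated data. These data had the same dispersion in every library and no difference that followed GC content. The simulation therefore cannot show how the fits behave with the spread seen between the SG libraries. Promoters are RefSeq sequences. The genes, lists and motifs were chosen with earlier results of these data known, and no set test was run. Values in every library are given for the entry regulators, for genes with a mean normalized count of at least 100 and for those at an unadjusted p under 0.05. From each related list up to 4 called genes are described, beside genes named in a count.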

Additional observations from a re-analysis of the deposited data

How the results depend on the processing

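The log2 difference of Stra8 stayed between 6.47 and 8.19 and passed the threshold in every fit that held it, while Stag3 (0.97 to 1.34) did so in some and not in others. The number of the 36 genes called higher was 2 by limma (1.16% of all genes), 6 with the GC correction (8.15%) and 6 with DESeq2 (3.32%). It was 1 without a filter (37 tested; Stra8), where 0.54% of all genes were called higher. The number was 0 with at least 40 in every library (33 tested, Stra8 not among them), where 0.408% of all genes were. With quantile normalization it was 4, where 1.6% of all genes were. It ran from 2 to 22 when 1 library was left out, 17 without SG replicate 1 and 22 without SG replicate 2. These 2 fits take their spread from the dSG pair alone, assume that the lone SG library varies like it, and called 31% and 38.5% of all genes higher and 28.8% and 42.7% lower, so their calls carry little weight. The number called lower was 1 with edgeR, 1 with DESeq2 and 2 with the GC correction, and 0 to 5 when 1 library was left out (4 with SG replicate 1 left out, 5 with SG replicate 2 left out). The median log2 difference of the 36 ran from 0.25 to 0.98 when 1 library was left out.

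The replicate numbers are not said to mark a shared batch, and with 2 pairs the correlation of same-numbered deviations (0.23) does not decide it. With the replicate number as a block 10 of the 36 were higher (8.15% of all genes) and 1 lower (12.7%), and with the block and the GC correction 8 were higher (12.1%) and 3 lower (16.9%), Tex12 among them (limma adjusted p = 0.0108).

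The sign turned after the GC correction, with or without the block, for Meioc (-0.23), Sycp1 (-0.22), Syce3 (0.15), Tex12 (-1.07), Mei1 (0.16), Dmc1 (-0.015), Meiob (-0.38), Terb1 (-0.37) and Terb2 (-0.33). Upper quartile scaling, which moved the median of all genes to 0.19, turned Syce1 (0.094), Syce2 (0.13) and Syce3 (0.093). Quantile normalization turned Syce2 (0.024) and Syce3 (0.052), and TMM turned Syce2 (0.0040). Tex12 was -0.042 with edgeR and -0.031 with DESeq2. Leaving out 1 library gave both signs for Meioc (-0.12 to 1.25), Syce2 (-0.22 to 0.12), Tex12 (-0.29 to 0.30), Mei1 (-0.54 to 0.10), Dmc1 (-0.010 to 1.04), Meiob (-0.31 to 0.92), Msh5 (-0.77 to 0.019), Majin (-0.027 to 0.33) and Terb2 (-0.25 to 1.18). None of these genes was called by limma on all 4 libraries without the block or the GC correction, and the cause was not tested. With 41 or fewer reads in SG replicate 1 for Stra8, Sycp3, Hormad1, Mei4, Prdm9, Hfm1 and Spo11 among others, depth limits these values.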
